A study of Mus musculus with 6 samples.

Results

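The 7 genes described here encode surface proteins through which antigen-presenting cells adjust a T cell response: Cd40, Cd80, Cd86, Icosl, Cd274, Pdcd1lg2 and Cd276. They were chosen by symbol among 42303 rows of an RNA-seq count table, all 7 were found there, and 6 of them reached the 50 counts over both libraries that were required before a ratio was counted, as did 14367 genes in all. Pdcd1lg2, with 47 counts, did not.

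The cells were microglia, the resident macrophages of the central nervous system, taken either without disease (naive) or when experimental autoimmune encephalomyelitis (EAE), a T cell driven model of multiple sclerosis, was at its peak. The inducing antigen was MOG peptide 35 to 55, from a myelin protein, and the mice were Ccr2rfp/+::Cx3cr1gfp/+, aged 24 to 28 weeks, in which fluorescent proteins replace one allele each of the chemokine receptor genes Ccr2 and Cx3cr1. By the daily clinical score, peak was the second day without a further increase once steady worsening had ended. The labels give the background strain C57Bl/6 for both groups and do not state the genotype or age of the naive mice separately. Cells of 30 mice were pooled per condition, from brain and spinal cord, and the sort used F4/80 and CD45, which infiltrating macrophages can carry too. RNA was sequenced in 1 library per condition, so the RNA values describe 2 pools and carry no test. Methylated DNA was captured with a methyl-CpG binding domain and sequenced (MiGS) in 2 libraries per condition.

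A T cell that recognises antigen on an MHC molecule needs a further signal before it divides and makes cytokines. Cd80 and Cd86 deliver it through CD28 and are also bound, more tightly, by the inhibitory receptor CTLA4. Icosl acts on ICOS of T cells already activated, while Cd274 (PD-L1) and Pdcd1lg2 (PD-L2) engage PD-1 and restrain the cell. Cd40 works in the other direction, as the receptor by which a presenting cell senses CD40 ligand on a helper T cell, and Cd276 (B7-H3) is a relative of this family whose receptor is not settled. In EAE, presentation of myelin antigen to infiltrating T cells within the central nervous system is a known step of the disease.

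The genes lie on 5 autosomes (build mm10, RefSeq gene spans): Cd40 at chr2:165055614-165071654, Cd276 at chr9:58524300-58555033, Icosl at chr10:78069368-78079525, Cd86 at chr16:36568956-36666158, Cd80 at chr16:38457430-38495958, Cd274 at chr19:29362107-29388095 and Pdcd1lg2 at chr19:29410919-29472927. The PD-1 ligand genes are direct neighbours, 22823 bp apart, and Cd80 and Cd86 share a chromosome at a distance of 1791271 bp. RefSeq promoter sequences were at hand for 5 of the 7, not for Cd40 and Cd86. Because MiGS captures DNA by its methylated CpGs, 4 of these sequences are shown with each CpG in capitals, read 5′ to 3′ on the gene's own strand and ending at the base before the gene start. Icosl and Cd276 are shown as CpG-dense starts, and the PD-1 ligand genes as neighbours that differ in CpG content. The Cd274 stretch is shorter because Plgrkt begins within the window.
Cd274, chr19:29367293-29367437, plus strand: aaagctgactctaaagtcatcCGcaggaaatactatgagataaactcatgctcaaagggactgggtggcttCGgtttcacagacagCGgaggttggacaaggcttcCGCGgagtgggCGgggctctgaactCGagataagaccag
Pdcd1lg2, chr19:29410669-29410918, plus strand: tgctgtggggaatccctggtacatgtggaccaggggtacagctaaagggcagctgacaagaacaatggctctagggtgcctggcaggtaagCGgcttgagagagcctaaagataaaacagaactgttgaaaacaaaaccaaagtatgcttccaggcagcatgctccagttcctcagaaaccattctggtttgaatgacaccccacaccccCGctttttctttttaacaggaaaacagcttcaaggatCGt
Icosl, chr10:78069118-78069367, plus strand: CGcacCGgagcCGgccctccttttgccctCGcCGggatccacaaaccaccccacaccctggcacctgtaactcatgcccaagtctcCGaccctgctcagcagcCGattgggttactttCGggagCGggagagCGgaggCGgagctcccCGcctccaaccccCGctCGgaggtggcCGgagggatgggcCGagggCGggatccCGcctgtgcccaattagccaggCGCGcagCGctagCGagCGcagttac
Cd276, chr9:58555034-58555283, minus strand: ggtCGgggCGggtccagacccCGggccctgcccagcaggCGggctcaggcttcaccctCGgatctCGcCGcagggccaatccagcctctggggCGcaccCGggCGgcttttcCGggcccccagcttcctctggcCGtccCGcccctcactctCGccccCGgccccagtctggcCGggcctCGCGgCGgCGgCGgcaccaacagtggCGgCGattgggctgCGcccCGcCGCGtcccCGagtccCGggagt

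Over the full 250 bases upstream, Cd276 held 29 CpGs, Icosl 23, Cd274 11, and Cd80 and Pdcd1lg2 3 each, beside a median of 6 over 32851 RefSeq promoters. Both strands of these windows were searched for an interferon gamma activated site (TTCNNNGAA), an interferon-stimulated response element and a kappa-B site, each counted separately whether or not matches overlap. None of the 5 windows held any of these exact patterns, while 7.02%, 2.98% and 0.356% of all promoters did. This says only that these letters are not in these windows. Looser forms of each site were not searched, so such sites may be present.

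The genes did not move as a group. Cd40 and Cd274 were many times higher in the peak library, Pdcd1lg2 appeared from 0 counts, Cd86 and Icosl stayed within 1.4-fold, and Cd80 and Cd276 were about 2-fold lower. Of the 6 genes with enough counts 2 were at least 2-fold higher, beside 11.6% of the 14367 genes, and 1 was at least 2-fold lower, beside 9.35%. Their median log2 ratio was 0.24, beside -0.0027 over all genes. Ratios are of counts scaled by TMM, which corrects for library size and composition, and intervals are exact (Clopper-Pearson, 95%) and cover counting error only.

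The helper T cell sensor Cd40 had 29 counts in the naive and 926 in the peak library. That is 0.272 and 7.44 FPKM (fragments per kilobase of transcript, scaled to library depth), and a 29.1-fold higher level at peak (interval 20.1 to 43.6). Its log2 ratio ranked 126 among the 14367 genes, and its naive level lay at percentile 4.80 of their naive FPKM values. The gene thus went from one of the lowest measured levels to percentile 55.8.

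The ligands of CD28 and CTLA4 behaved differently from each other. Cd86 had 10600 naive and 11715 peak counts, or 92.6 and 87.5 FPKM, with a ratio of 1.01 (interval 0.980 to 1.03). Its direction depends on scaling, from 1.09-fold lower with upper quartile scaling to 1.01-fold higher with DESeq2 size factors. Cd86 was thus abundant in both libraries, at percentile 97.3 and 96.4 of all tested genes. Cd80 had 678 naive and 399 peak counts, or 12.7 and 6.42 FPKM, and was 1.87-fold lower (interval 1.65 to 2.12). Upper quartile scaling moved it past 2-fold, to 2.05-fold lower.

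Within 1 library the ratio of 2 genes does not depend on scaling between libraries. Per FPKM of Cd80 there were 7.26 FPKM of Cd86 in the naive and 13.6 in the peak library, a 1.88-fold change of the ratio (interval 1.65 to 2.14). The sum of Cd80 and Cd86 was 105 FPKM in the naive and 93.9 in the peak library. Most of that sum was Cd86 in both libraries. Unlike the ratio within a library, the sum depends on scaling between libraries.

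Icosl, the ligand of ICOS, had 5718 naive and 8679 peak counts, or 66.3 and 86.1 FPKM. It was 1.38-fold higher (interval 1.34 to 1.43), between 1.26-fold and 1.38-fold over the 4 scalings. Against Cd86 the change also appears within the libraries, with 1.40 FPKM of Cd86 per FPKM of Icosl in the naive and 1.02 in the peak library.

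Of the PD-1 ligands, Cd274 had 348 naive and 7387 peak counts. Its level went from 3.07 to 55.8 FPKM, 19.3-fold higher at peak (interval 17.3 to 21.6), from percentile 35.5 to percentile 94.0 of all tested genes. Pdcd1lg2 had 0 naive and 47 peak counts, 0.781 FPKM at peak. With the 3 counts that a count of 0 allows standing in for the naive value it was at least 14.3-fold higher, and the exact interval, which also covers the counting error of the peak library, begins at 11.1-fold. Nearly all PD-1 ligand transcripts at peak were thus Cd274, and the sum of both genes was 3.07 FPKM in the naive and 56.6 FPKM in the peak library. Cd86 exceeded Cd274 by 30.1 FPKM per FPKM in the naive and by 1.57 in the peak library, a 19.2-fold narrowing (interval 17.2 to 21.5).

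Cd276 had 609 naive and 317 peak counts, or 5.90 and 2.63 FPKM. It was 2.11-fold lower (interval 1.84 to 2.43) and stayed more than 2-fold lower in all 4 scalings, from 2.11-fold to 2.32-fold. Its ratio to Cd80 was 2.16 FPKM of Cd80 per FPKM of Cd276 in the naive and 2.44 in the peak library, a change of 1.13 whose interval, 0.937 to 1.36, includes no change. The difference of Cd80 from Cd276 was thus within counting error, while Cd40 and Cd274 differed from each other by 1.5-fold in their ratios (interval 1.02 to 2.29).

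**Figure D1:**
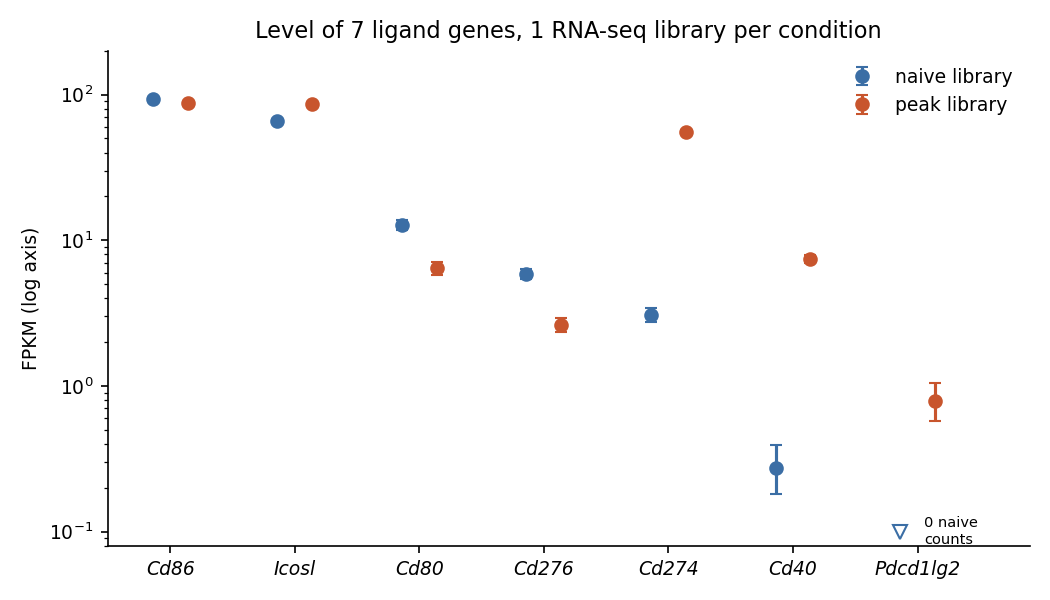
Level of each gene in FPKM on a log axis in the naive (blue) and the peak (orange) library, with exact 95% Poisson intervals for counting error. Cd86 and Icosl lead in both libraries, Cd274 goes from 3.07 to 55.8 FPKM, and the open triangle marks Pdcd1lg2, which had 0 naive counts.

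The order of the levels, per transcript length, was Cd86, Icosl, Cd80, Cd276, Cd274, Cd40 and Pdcd1lg2 in the naive library. Among the 6 genes with naive counts no neighbours overlapped in their counting intervals. At peak the order was Cd86, Icosl, Cd274, Cd40, Cd80, Cd276 and Pdcd1lg2. Here Cd86 (interval 85.9 to 89.1 FPKM) and Icosl (84.3 to 88.0 FPKM) could not be told apart, nor could Cd40 (6.96 to 7.93 FPKM) and Cd80 (5.80 to 7.08 FPKM). The 7 genes summed to 181 FPKM in the naive and 247 FPKM in the peak library. Cd274 made up 1.70% of that sum in the naive and 22.6% in the peak library, and Cd86 went from 51.2% to 35.5%.

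**Figure D2:**
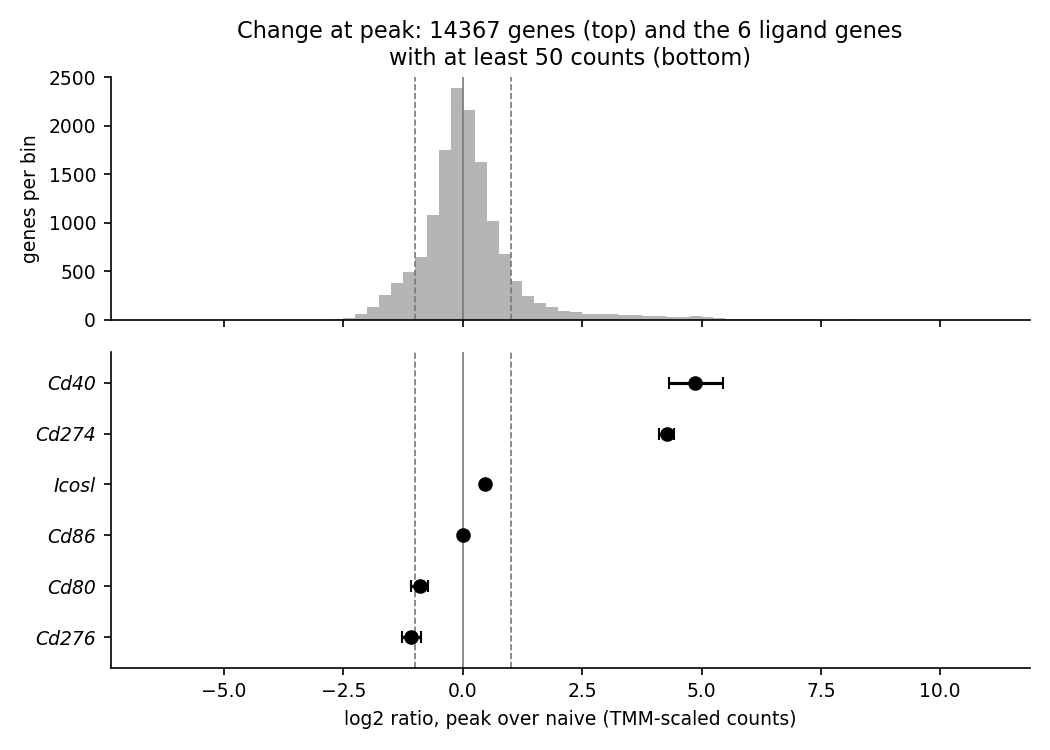
Top, number of genes per bin of log2 ratio, peak over naive, for 14367 genes; bottom, the 6 ligand genes with at least 50 counts, with exact 95% intervals, and dashed lines at 2-fold. Cd40 and Cd274 lie in the far right tail, Cd86 and Icosl near the centre, and Cd80 and Cd276 at the left dashed line.

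Markers of other cells differed between the same libraries. Of 9 monocyte markers with enough counts 8 were at least 2-fold higher, and the 10 in the table, none of them at 0 in either library, summed to 7.46 FPKM in the naive and 120 FPKM in the peak library. Most of that peak sum was Fn1 (2.23 naive and 83.9 peak FPKM, 40.0-fold higher). The 1 that did not reach 2-fold was Ccr2 (1.78-fold higher). Of 9 microglia markers 2 were at least 2-fold lower, or 5 with upper quartile scaling, and they summed to 15064 and 9569 FPKM. The 10 dendritic cell markers summed to 148 and 112 FPKM, with 1 higher and 2 lower of 7 and Ccr7 at 0 in the naive library. Most of that naive sum was Fscn1 (130 naive and 44.4 peak FPKM, 2.76-fold lower). The 1 higher was Itgax (5.86 and 54.9 FPKM, 9.96-fold), so the sum does not describe the list as a whole. The 9 B cell markers summed to 18.5 and 21.9 FPKM, with Blk and Fcer2a among those at 0 in the naive and Fcer2a at 0 in the peak library. Border macrophage markers summed to 103 and 72.1 FPKM, with 2 of 7 lower and 1, Siglec1, 3.52-fold higher. Neutrophil markers summed to 27.1 and 26.7 FPKM, with 1 of 5 higher (Cxcr2, 7.93-fold), 2 lower (Camp 3.71-fold) and Ly6g at 0 in the naive library. Endothelial markers summed to 29.0 and 14.8 FPKM, with 5 of 7 lower, and astrocyte markers to 80.1 and 32.3 FPKM, with 5 of 6 lower and Gfap 2.64-fold higher. The part of these cells in the ligand values was not tested, and in bulk RNA more cells of a type and more RNA per cell cannot be told apart.

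The receptors that these ligands engage were measured in the same libraries. Pdcd1, which encodes PD-1, had 195 naive and 1569 peak counts (3.23 and 22.2 FPKM) and was 7.32-fold higher (interval 6.31 to 8.54). Ctla4 had 1 and 35 counts, a ratio of 31.8 with an interval of 5.35 to 1293. Icos had 35 and 53 counts (ratio 1.38, interval 0.882 to 2.18) and Cd28 had 7 and 13 (1.69, interval 0.627 to 5.0), so a difference of these was not detectable at this depth. Cd40lg was not analysed here. Among T cell markers, 5 reached 50 counts. Of these 4 were at least 2-fold higher, beside 11.6% of all genes, or 3 with upper quartile scaling. At least 2-fold lower were 0, beside 9.35% of all genes (median log2 ratio of the markers 1.17). All 13 T cell markers summed to 2.12 FPKM in the naive and 6.43 FPKM in the peak library, with Cd2, Cd3e, Cd3g, Cd8a and Cd8b1 at 0 in the naive library, and Cd3e had 2 peak counts. The part of T cells in the receptor values was not tested.

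Among 28 other ligands and receptors of the same kind, 19 had enough counts, 6 were at least 2-fold higher, beside 11.6% of all genes, and 2 lower, which is near the 9.35% of all genes. Their median log2 ratio was 0.64. With upper quartile scaling 3 were higher and 2 lower, while 1432 of all 14367 genes were higher and 1686 lower. The largest ratios were those of the SLAM family receptor Cd244a (81 naive and 3976 peak counts, 44.7-fold), the galectin Lgals3 (117 and 4586 counts, 35.7-fold), the TNF family ligand Tnfsf14 (12 and 148 counts, 11.2-fold) and Tnfsf9, the 4-1BB ligand (48 and 115 counts, 2.18-fold). Nectin3, an adhesion molecule of the nectin family, went from 78 to 37 counts (2.32-fold lower). Vsir, the inhibitory B7 relative VISTA, was by far more abundant than any of the 7 genes, with 139310 naive and 71620 peak counts (888 and 391 FPKM), and was 2.14-fold lower (interval 2.12 to 2.16). Vtcn1, Btn1a1 and Fgl1 had 0 counts in both libraries.

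Most MHC class II genes, whose products show antigen to helper T cells, had higher levels at peak, as Cd40 and Cd274 did. The MHC class II list of 11 genes also holds Ciita, Cd74 and Ctss, and Ciita is in the interferon gamma list below too. Of the 11, 9 were at least 2-fold higher, beside 11.6% of all genes, and 0 lower, beside 9.35%. With upper quartile scaling these were 8 and 0, and the median log2 ratio was 1.66. The class II transactivator Ciita was 15.9-fold, the invariant chain Cd74 10.2-fold, H2-Ab1 9.02-fold and H2-Aa 7.53-fold higher. H2-Ob, a chain of a modulator of peptide loading, was at 1.03-fold lower.

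Of 20 genes of CD40 signalling and NF-kappa-B, 3 were at least 2-fold higher, near the 11.6% over all genes, and 0 were lower, beside 9.35% (median log2 ratio 0.21). The 3 were Bcl3, a nuclear partner of NF-kappa-B (7.94-fold), the adaptor Traf1 (4.28-fold) and the subunit Relb (2.60-fold). The subunit Rela was at 1.36-fold lower and Nfkb1 at 1.09-fold lower. The interferon gamma pathway, is a well known inducer of Cd274. Of its 17 genes 7 were at least 2-fold higher and 1 lower (median 0.44), with Nlrc5 at 17.8-fold, Ciita at 15.9-fold and the feedback inhibitor Socs1 at 8.07-fold, and with the receptor chain Ifngr1 at 2.05-fold lower (34016 naive and 18195 peak counts). Ifng itself had 1 naive and 16 peak counts. Of 10 genes for partners or turnover of the ligand proteins 1, the glycosyltransferase gene B3gnt3, was at least 2-fold higher (29 and 118 counts, 3.70-fold), which is near the share over all genes. Cmtm6, which protects PD-L1 protein from degradation, was at 1.52-fold lower, with 295 naive and 183 peak FPKM.

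**Figure D3:**
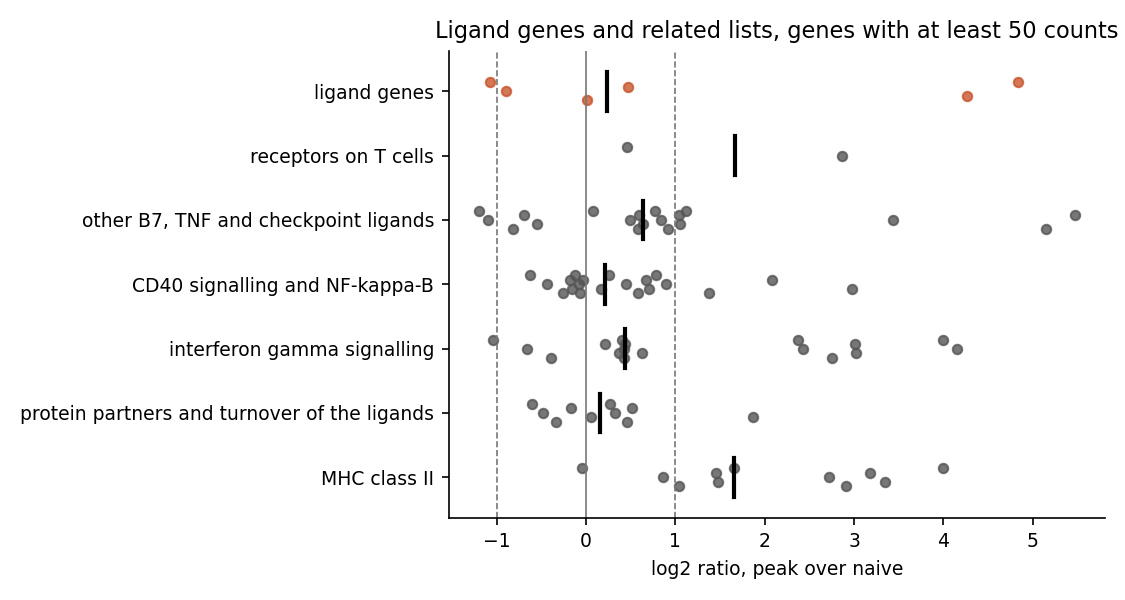
Log2 ratio, peak over naive, of each gene with at least 50 counts in the ligand set (orange) and in 6 related lists (grey), with the median of each list as a black bar and dashed lines at 2-fold. The ligand genes spread from -1.08 to 4.84 around a median of 0.24, while the MHC class II list has a median of 1.66.

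None of the measured chromosomal neighbours with at least 50 counts had a ratio like that of Cd40 or Cd274. The protein-coding genes beside Cd40 were Ncoa5 (1471 naive and 1327 peak counts, 1.22-fold lower) and Cdh22 with 23 and 4 counts. Around the PD-1 ligand pair, Plgrkt was 1.68-fold higher (1833 and 3392 counts), Ric1 1.41-fold higher and Ermp1 1.04-fold lower. Insl6, on the other side of Plgrkt, had 0 naive and 17 peak counts. RefSeq lets the spans of Cd274 and Plgrkt overlap at the lower end of the Cd274 span, upstream of the gene start used for its promoter. Noncoding genes or pseudogenes also overlap Icosl (Gm51775), Cd274 (Gm36043), Cd276 (Gm51678) and Cd80 (Gm41453, Gm8590 and Ck-ps3). The sources used here do not say if reads were counted by strand, so reads from the overlaps may be split. Beside Cd80, Timmdc1 and Adprh were at 1.17-fold higher and 1.02-fold lower, and beside Cd86, Ildr1 was 2.10-fold lower (273 and 143 counts).

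Other genes had nearly the same pair of FPKM values, by Euclidean distance on the log2 scale over the 2 libraries. For Cd40 these were Cenpe and Hmmr, at distances of 0.071 and 0.077. For Cd274 they were Nlrc5 (3.08 and 51.4 FPKM) and Pim1 (2.97 and 51.7 FPKM), at distances of 0.12 each. Fat3 and Tubb2b were nearest to Cd80, Slc5a3 and Trp53i11 to Cd276, Tmem86a and Zfp36l2 to Cd86, and Atf3 and Os9 to Icosl. A likeness over 2 libraries is a description of 2 points.

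MiGS asked whether captured, methylated DNA at these genes differed too. Values are signal per kb, which the authors scaled per library, and a window enters the deposited files only with at least 3 reads over the 4 libraries. At the gene starts of Cd80, Cd274, Pdcd1lg2, Icosl and Cd276, from 1000 bp before to 500 bp after the start, no window was listed in any of the 4 libraries. This held for the CpG-dense starts of Icosl and Cd276 shown above and for the CpG-poor starts of Cd80 and Pdcd1lg2. The share over all gene starts was not computed. Where CpGs are few there is little to capture, so empty windows do not show a like state of these starts. The gene starts are those that follow the promoter sequences. For Cd274 (chr19:29367438) and Cd80 (chr16:38458933) they lie inside the RefSeq span, so the lower gene end described next is a different place. Of the 7 genes, 5 had no listed window at either end of the gene, as had 34.2% of 20665 protein-coding genes. The 2 others had reads at the far end. Pdcd1lg2 had 58 and 80 naive reads there against 122 and 52 peak reads, and Cd274 had 0 and 0 against 16 and 4.

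Neither of these gene ends passed the test. For Pdcd1lg2 the signal over both ends was, in replicates 1 and 2, 21.9 and 31.0 per kb for naive against 33.7 and 14.2 for peak (26.5 ± 6.38 and 23.9 ± 13.8, SD, n = 2). The groups overlapped, with a log2 change of -0.24 (SE 0.52, limma adjusted p = 0.939), beside a median of 0.16 over all gene ends. For Cd274 both naive libraries were at 0 and the peak libraries at 4.42 and 1.09 per kb, so the groups did not overlap. The share of all gene ends without overlap was not computed. Its log2 change was 1.75 (SE 1.49, limma adjusted p = 0.921), a size that depends on the value added before the logarithm: it was 3.32 with 0.25 added, and from 1.06 to 2.44 when 1 peak library was left out. On recovered reads it was 6.01 with edgeR and 5.09 with DESeq2, and the adjusted p over all these fits was at least 0.326. Over all 10607 gene ends with at least 20 reads limma called 0% higher and 0% lower at an adjusted p of 0.05, with 534 at an unadjusted p under 0.05, and 0 were called by edgeR with no block and by DESeq2, with 451 and 376 at an unadjusted p under 0.05.

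Captured DNA lay inside all 7 gene bodies. Cd80 had 19.8 and 29.9 per kb (naive) against 14.3 and 18.9 (peak) (24.8 ± 7.13 and 16.6 ± 3.28, SD, n = 2), so that both naive libraries were above both peak libraries. Its log2 change was -0.54 (SE 0.34, limma adjusted p = 0.964). Over all gene bodies the median log2 change in this fit was -0.11, with 39.7% above 0. With edgeR on recovered reads without a block that median was 0.00068, and Cd80 was at -0.42. Cd86 had the lowest signal, 4.77 and 5.82 against 4.17 and 3.99 per kb (5.29 ± 0.744 and 4.08 ± 0.125), again without overlap and without passing (log2 change -0.30, SE 0.41, limma adjusted p = 0.964). The share of all gene bodies without overlap was not computed, so the separation only describes these libraries. In recovered reads, not adjusted for depth, the conditions overlapped in both genes. Cd80 had 653 and 964 naive against 646 and 868 peak reads, and Cd86 404 and 482 against 484 and 470.

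In the gene bodies of Cd274 and Cd40, the genes with the largest RNA ratios among the 6, the conditions overlapped. Cd274 had 20.5 and 24.6 naive against 17.1 and 23.7 peak signal per kb (22.6 ± 2.87 and 20.4 ± 4.68), a log2 change of -0.15 (SE 0.33, limma adjusted p = 0.971). Cd40 had 8.75 and 12 against 11.1 and 10.1 per kb (10.4 ± 2.33 and 10.6 ± 0.723), a log2 change of 0.04 (SE 0.35, limma adjusted p = 0.991). Cd276, Icosl and Pdcd1lg2 overlapped too, with log2 changes of 0.06 (SE 0.33), 0.02 (SE 0.34) and 0.00041 (SE 0.38). Of 16595 gene bodies limma called 0.00603% (1) higher and 0% lower, with 634 at an unadjusted p under 0.05, and 0 were called by edgeR with no block and by DESeq2, with 500 and 639 at an unadjusted p under 0.05. With the replicate number as a block limma called 241 higher and 894 lower and edgeR 59 and 584, none of them among the 7 genes.

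**Figure D4:**
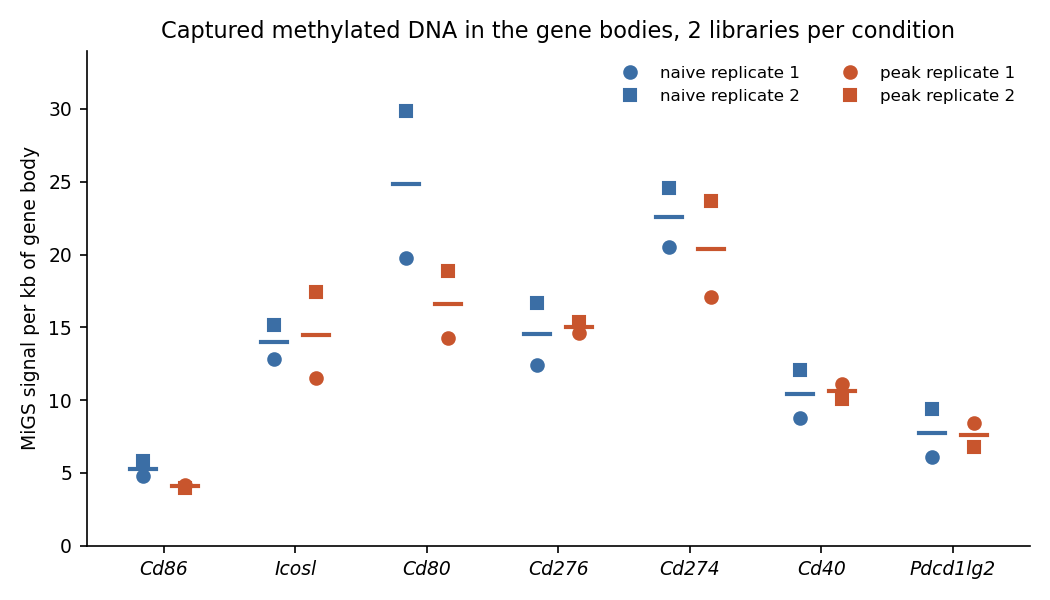
MiGS signal per kb of gene body in each library (circles, replicate 1; squares, replicate 2) with the mean per condition as a bar, naive in blue and peak in orange. The libraries of the conditions overlap in 5 genes, and both naive libraries lie above both peak libraries in Cd80 and Cd86. The share of all gene bodies without overlap was not computed.

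A few segments held much of the captured DNA. In Cd80 the strongest run of windows with reads in all 4 libraries, chr16:38484051-38484550, lay 25118 bp downstream of the gene start within the creatine kinase pseudogene Ck-ps3 (chr16:38483182-38484596), which covers 3.67% of the gene's length. Ck-ps3 took 52.1% and 79.6% of naive and 38.4% and 69.2% of peak reads of the Cd80 body. Outside it the signal of Cd80 per kb was 9.84 and 6.34 (naive) against 9.13 and 6.04 (peak), so the conditions overlapped once Ck-ps3 was left out. Reads of a pseudogene can fit other copies as well, and how such reads were placed is not stated, so the Ck-ps3 values are uncertain.

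In the other genes the strongest segments were chr2:165062901-165063150 in Cd40, chr16:36635401-36635650 in Cd86, chr19:29379251-29379500 in Cd274 (11813 bp downstream of its start), chr19:29437151-29437650 in Pdcd1lg2 (26232 bp), chr10:78075201-78075450 in Icosl (5833 bp) and chr9:58525951-58526300 in Cd276 (28733 bp). They held from 18.5% of the gene's reads in Cd274 to 53.8% in Icosl. The Cd274 segment lies within the overlapping noncoding gene Gm36043. In Cd86 the mean signal per window of its segment was 24.3 and 42.7 (naive) against 8.61 and 28.7 (peak), and in Icosl 15.9 and 18.6 against 5.80 and 18.0. In all 7 genes naive replicate 2 was the highest and peak replicate 1 the lowest library at the strongest segment. Peak replicate 1 also had reads in 2437675 windows of the genome, against 1943341 to 2052178 in the other 3 libraries, and the part of this in the gene values was not tested.

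**Figure D5:**
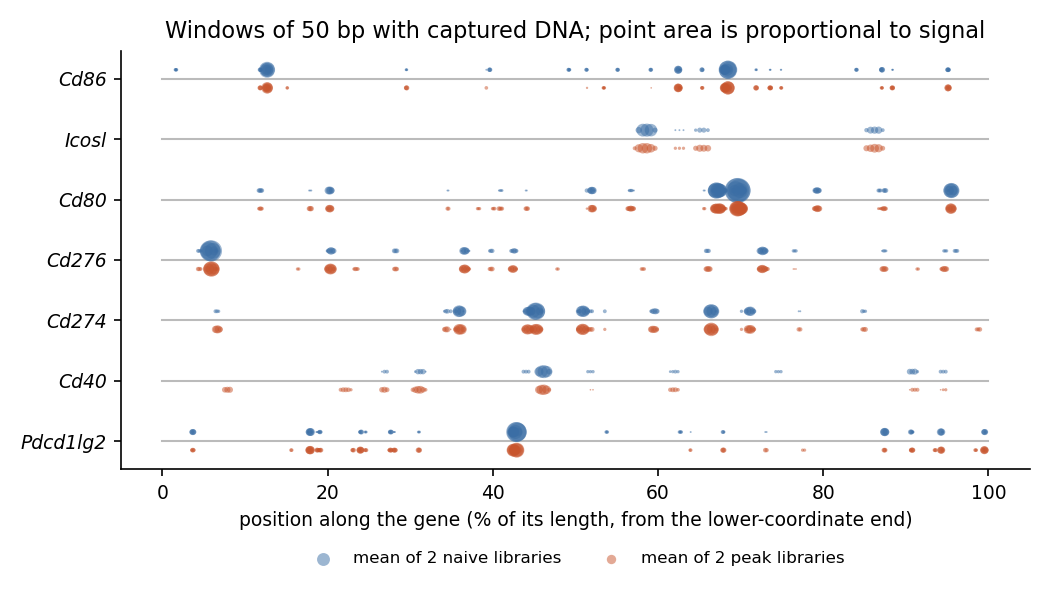
Windows of 50 bp with captured DNA along each gene, from its lower-coordinate end (0%) to its upper end (100%), with point area proportional to the mean signal of the naive (blue) and peak (orange) libraries. The strongest segment of a gene held from 18.5% of its reads in Cd274 to 53.8% in Icosl, and in Cd80 the largest points mark Ck-ps3.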

How the data were processed

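For each Ensembl gene the authors deposited raw counts and FPKM, per the file headers; FPKM ratios between libraries follow library totals. Per the labels' protocols, a stranded total RNA kit that removes ribosomal RNA was used. Bowtie2, TopHat, featureCounts and edgeR with build mm10 are named in the submitters' processing notes, without roles or versions. The naive library held 31282093 counts and the peak library 36561934. MiGS values are deposited as signal per 50 bp window of chromosomes 1 to 19. All values were whole multiples of 1 read within 0.001, so the authors scaled reads by 1 factor per library, and reads were recovered. They came to 30424742 and 36501153 (naive) and 43970332 and 35285601 (peak), with fragments counted in several windows.

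Symbols came from a table of Ensembl names; 506 rows had none. Counts were scaled by TMM (edgeR 4.0.16) over genes with at least 50 counts, and 0.5 was added on the log2 scale. No p-value is given for 1 library per condition. For MiGS, limma 3.58.1 (moderated, with a variance trend) was run two-sided on log2(signal per kb + 1), with Benjamini-Hochberg adjustment over all gene ends (1000 bp outside to 500 bp inside the gene) or bodies (500 bp left out at both ends) with at least 20 reads. As alternatives, edgeR and DESeq2 1.42.0 were run on the recovered reads. Nothing in the labels says that the MiGS libraries are separate pools of animals, although they are called biological replicates, so p-values may measure technical spread in part. Steps were tested on simulated data. Other tools were R 4.3.3, Python 3.11.15 and scipy 1.17.1. Promoters and gene spans are RefSeq's (GRCm38.p6, the mm10 assembly).

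The members and the related and marker lists were chosen with earlier results of these data known. Named with values were all 7 genes, up to 4 genes per list and direction past 2-fold, the receptors, the 2 nearest protein-coding genes on each side that bear on a result, and the 2 genes nearest in FPKM. Symbols with 0 counts in both libraries and the Ck-ps3 segment were named after their values were seen. So were H2-Ob, Rela, Nfkb1, Cmtm6, Ifng, Cd3e, Siglec1, Cxcr2, Camp, Gfap, Fscn1, Itgax, Fn1 and Ccr2. A few genes covered by the rule are left unreported here.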

Additional observations from a re-analysis of the deposited data

How the results depend on the processing

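With upper quartile scaling 2 ligand genes instead of 1 were at least 2-fold lower, Cd80 joining Cd276. Without a count minimum Pdcd1lg2 joined the ligand genes at least 2-fold higher, which were then 3, and 4212 genes in all were at least 2-fold higher and 3835 lower, and with at least 200 counts 696 were lower. Compared with TMM, the all-gene median shifted by -0.09 on the log2 scale with library totals and by -0.14 with upper quartile scaling. The log2 ratio of Cd86, never past 2-fold, was -0.08 with library totals and -0.13 with upper quartile scaling. Of 35 alternative values of the 7 log2 ratios 8 left their counting interval, 3 of Cd86, 3 of Icosl and 2 of Pdcd1lg2.

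Calls over all genes in MiGS depended on the fit. The labels do not explain the replicate numbers. Used as a replicate block, they moved the calls from 0 gene ends in either direction to 17 gene ends higher and 274 lower with edgeR and to 60 and 430 with limma, and in gene bodies from 0 and 0 to 59 and 584 with edgeR and from 1 and 0 to 241 and 894 with limma. Same-numbered libraries deviated together with r = 0.212 in gene ends and 0.376 in bodies, over 2 pairs, which does not settle a pairing. The 1 body called higher became 0 with edgeR without the block and with DESeq2, and 2 with no minimum of reads. Leaving out 1 library gave from 0 to 54 bodies higher (8 without peak replicate 1 and 54 without peak replicate 2) and from 0 to 18 lower (18 and 8 without the same libraries). The causes were not tested. None of the 7 genes passed in any of these fits, with adjusted p from 0.308 to 1 in bodies and from 0.326 to 1 in ends.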
